A study of Homo sapiens with 4 samples.

Results

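The genes described here encode proteins that build the mitotic spindle and divide the cell: microtubule nucleators and bundlers, spindle pole and kinetochore proteins, the Greatwall kinase pathway, and the proteins of the midzone, contractile ring and abscission. They were 38 genes chosen by name for these functions, and all 38 were found on the array, with 125 of its 49293 probe sets mapping to exactly 1 of them. Messenger RNA was measured in SCC-15, an established line from a human tongue squamous cell carcinoma, after transfection with a microRNA mimic or with the negative control oligonucleotide miR-NC. Each group had 2 arrays, with the RNA given at 30 nM, 24 h after the cells were seeded, and the cells taken 36 h after that. A mimic is an RNA made to act as a given mature microRNA. It was called miR-762 in the title and design text of the series and miR-585-5p in the labels of both mimic samples, so the group is called mimic here. No label said that replicates came from separate cultures, so each p-value here reflects only the scatter of these 4 arrays, part or all of which may be technical.

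The name matters because the mature sequences differ, as do their seeds, the bases 2 to 8 (capitals) through which a microRNA mostly pairs with its targets. The sequences are RefSeq's on GRCh38.p14, written 5′ to 3′.
hsa-miR-762, chr16:30893951-30893972, plus strand: gGGGCUGGggccggggccgagc
hsa-miR-585-5p, chr5:169263649-169263670, minus strand: cUAGCACAcagauacgcccaga
The seeds share the same base at 2 of 7 positions. Which of them was transfected cannot be told apart from these labels.

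During mitosis, microtubules nucleated at the poles, near chromosomes and on existing microtubules are sorted into a bipolar spindle and attached to kinetochores. After the chromosomes part, antiparallel microtubules of the midzone tell the cortex where to assemble a RHOA-driven ring of actin and myosin, and ESCRT-III filaments sever the remaining bridge. Many genes of this machinery are transcribed mainly in G2 and M, under the DREAM complex and its activating counterparts MYBL2 and FOXM1, which act through a promoter element named the cell cycle genes homology region (CHR). Other proteins of the same machinery have further roles outside mitosis and are made throughout the cycle.

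Most of the 38 genes were higher in the mimic arrays: 28 rose, 3 fell and 7 did not pass (limma, Benjamini-Hochberg adjusted p under 0.05 over 14340 genes). Over all genes tested, 17.7% rose and 12.3% fell, 30.1% in either direction. The rise reached 2-fold or more for 13 of the 38, against 2.06% of all genes, and no member fell by that much, against 0.195%. The median difference, mimic minus control on the log2 scale as for every difference below, was 0.83 for the members and -0.018 for all genes. The mimic arrays lay above both control arrays for 32 members, below both for 4 and overlapped with them for 2, whereas 34.2% of all genes lay above and 36.3% below (70.4% together). When the deposited values were quantile normalized once more, the split over all genes turned from 59.0% of calls higher to 44.0%, but 28 members still rose and 2 fell.

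**Figure D1:**
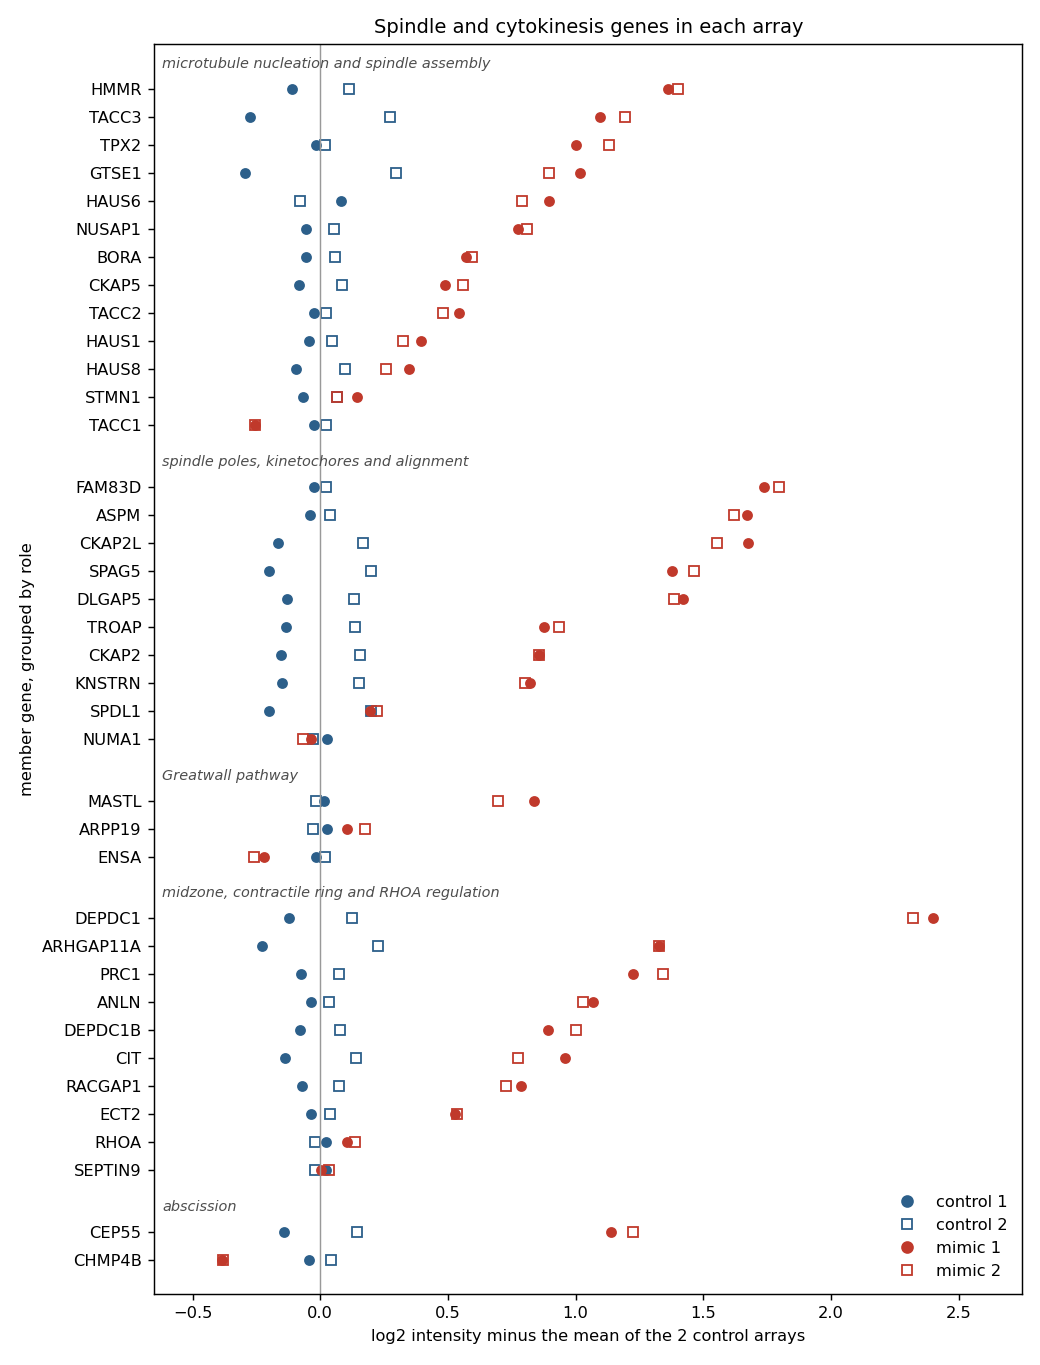
Log2 intensity of each member gene in each of the 4 arrays (x axis), less the mean of the 2 control arrays, with genes on the y axis grouped by role and ordered by difference; filled circles are replicate 1, open squares replicate 2, blue control and red mimic. The mimic arrays stand to the right of both controls for 32 of the 38 genes, farthest for DEPDC1 at 2.36, and to the left for TACC1, NUMA1, ENSA and CHMP4B.

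The members divided by the known timing of their transcripts. Of the 25 whose transcripts are known to peak in G2 and M, 24 rose, 0 fell and SPDL1 did not pass. Their median difference was 1.05, in a range of 0.21 to 2.36. No member of this class had a negative difference. Of the other 13, 4 rose (HAUS6, CKAP5, TACC2 and HAUS1), 3 fell (CHMP4B, TACC1 and ENSA) and 6 did not pass, with a median of 0.12 and a range of -0.38 to 0.84. All 13 rises of 2-fold or more were in the G2 and M class. This class was drawn up from general knowledge of cell cycle transcription, with earlier results of these arrays known, so the difference between the classes is a description.

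**Figure D2:**
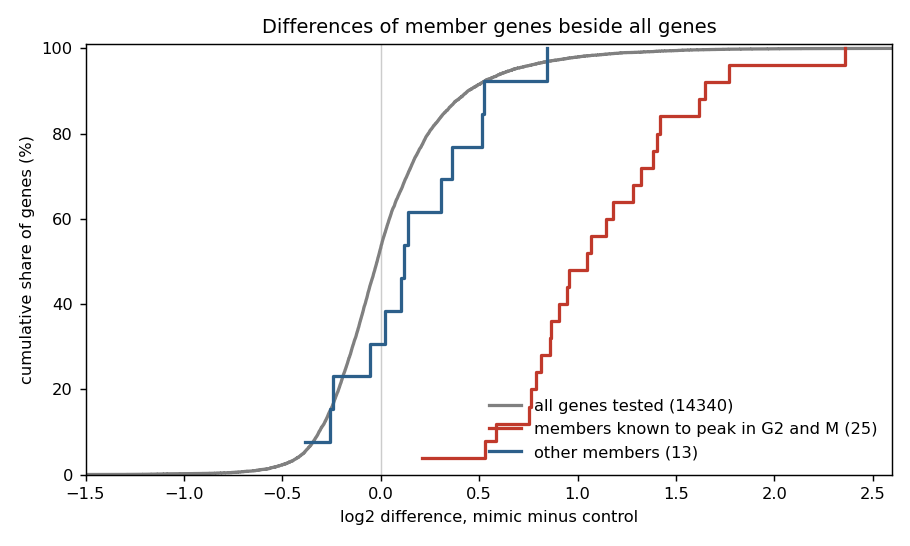
Cumulative share of genes (y axis, %) by log2 difference, mimic minus control (x axis), for all 14340 genes tested (grey), the 25 members known to peak in G2 and M (red) and the 13 other members (blue). The red curve starts at 0.21 and has its median at 1.05, whereas the blue curve runs from -0.38 to 0.84 around a median of 0.12, close to the median of all genes at -0.018.

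The control arrays also differed from each other in most of these genes. Control 2 was above control 1 for 24 of the 25 members of the G2 and M class, with a median gap of 0.25, and for 32 of all 38, with a median gap of 0.14. Over all genes control 2 was above control 1 in 56.8%, with a median gap of 0.022. The mimic arrays showed no such order, mimic 2 being above mimic 1 for 19 of the 38 members (median gap of 0.00051). The part of the control gap in the members' differences was not tested beyond leaving out each array. Without control 1 the members' median difference was 0.71 with 19 rising and 0 falling, and without control 2 it was 0.90 with 23 rising and 0 falling. Without mimic 1 or mimic 2, limma called 0 of the 14340 genes, the smallest adjusted p being 0.0550 and 0.0551. At an unadjusted p under 0.05 there were then 4198 and 4269 genes, 31 and 30 of them members, and 34 of the 38 differences stayed positive in both cases. In RNA from a whole culture, a larger share of cells in G2 and M and more RNA per cell cannot be told apart.

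The promoters of the members are shown because the genes of the G2 and M class moved together. Of the 38 members, 33 had at least 1 RefSeq window on GRCh38.p14 of 250 bases before to 50 after a transcript start, 53 windows in all. The CHR was searched as TTTGAA and the box bound by NF-Y, a factor that often acts beside it, as CCAAT, each on both strands. Of the 23 windows of the G2 and M class, 18 held TTTGAA (78.3%), against 4 of the 30 windows of the other members (13.3%), 15.2% of all 35116 windows in the table and 11.04% of the 16623 windows of genes tested. Counted by gene, 17 of 21 members of the G2 and M class and 4 of 12 others had TTTGAA in some window. CCAAT was in 14 of the 23 windows (60.9%), against 33.3% of the windows of the other members and 34.6% of all windows, and the same 14 windows held both motifs (60.9%, against 5.90% of all windows). Genes with these elements are part of what is known of the G2 and M class, so the shares describe the class and do not test it.

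The 150 bases before the start are given for the 6 members with the largest differences among those with a single window. Then follow the 2 of these members with the smallest absolute differences, NUMA1 and RHOA. Each runs 5′ to 3′ on the strand of the gene and ends 1 base before the start; capitals mark TTTGAA and CCAAT or their reverse complements TTCAAA and ATTGG.
DEPDC1, chr1:68497083-68497232, minus strand: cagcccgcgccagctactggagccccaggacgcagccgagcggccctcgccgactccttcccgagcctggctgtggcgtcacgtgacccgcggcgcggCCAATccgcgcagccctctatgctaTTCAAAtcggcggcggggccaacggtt
ASPM, chr1:197146670-197146819, minus strand: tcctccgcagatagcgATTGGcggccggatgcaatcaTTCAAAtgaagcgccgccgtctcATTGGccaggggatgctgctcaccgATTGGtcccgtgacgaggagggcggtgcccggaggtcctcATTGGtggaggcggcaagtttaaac
CKAP2L, chr2:112764610-112764759, minus strand: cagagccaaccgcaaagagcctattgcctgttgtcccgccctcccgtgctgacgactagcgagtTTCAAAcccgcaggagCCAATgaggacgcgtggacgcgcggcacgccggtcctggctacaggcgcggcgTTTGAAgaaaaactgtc
SPAG5, chr17:28599026-28599175, minus strand: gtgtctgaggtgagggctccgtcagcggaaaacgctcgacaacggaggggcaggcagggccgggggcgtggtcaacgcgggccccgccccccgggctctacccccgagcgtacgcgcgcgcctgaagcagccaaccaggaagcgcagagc
DLGAP5, chr14:55191586-55191735, minus strand: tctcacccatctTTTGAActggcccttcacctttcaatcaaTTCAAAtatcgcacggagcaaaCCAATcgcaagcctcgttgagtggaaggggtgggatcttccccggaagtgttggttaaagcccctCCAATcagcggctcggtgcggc
HMMR, chr5:163460482-163460631, plus strand: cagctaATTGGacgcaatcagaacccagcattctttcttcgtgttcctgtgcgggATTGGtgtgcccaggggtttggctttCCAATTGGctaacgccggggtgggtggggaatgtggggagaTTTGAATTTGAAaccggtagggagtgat
NUMA1, chr11:72080543-72080692, minus strand: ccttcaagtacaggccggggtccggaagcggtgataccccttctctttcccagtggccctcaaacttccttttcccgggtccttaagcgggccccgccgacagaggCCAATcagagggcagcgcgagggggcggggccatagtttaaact
RHOA, chr3:49411977-49412126, minus strand: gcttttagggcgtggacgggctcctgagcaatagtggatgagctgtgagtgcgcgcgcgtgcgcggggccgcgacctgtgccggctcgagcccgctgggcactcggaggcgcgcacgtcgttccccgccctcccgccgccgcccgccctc
The CHR letters of DEPDC1 began at -27, counted from the start with -1 as the base just before it, and a CCAAT box began at -52. HMMR carried a tandem pair beginning at -28 and -22, and 1 of its CCAAT boxes overlapped another on the opposite strand. ASPM had 4 CCAAT boxes and 1 CHR match beginning at -113. SPAG5 showed neither in the stretch printed, and its TTCAAA began at the 4th base after the start. In the printed stretch NUMA1 had 1 CCAAT box and RHOA neither motif; a CCAAT box of RHOA began farther out, at -166. A match shows that the letters are present and no more.

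Among the 13 genes of microtubule nucleation and spindle assembly, 10 rose and 1 fell, and the median was 0.58. HMMR, a microtubule-binding protein of the spindle, was at 9.98 and 10.02 in the mimic arrays and 8.51 and 8.73 in the control arrays (log2 intensity, as for every level below). The mimic arrays stood clear of both controls, with a difference of 1.38 ± 0.090 (SE), 2.61-fold (adjusted p = 0.00157), and its 4 probe sets ranged from 1.32 to 1.49. TPX2, which activates Aurora A and promotes microtubule nucleation near chromosomes, was at 7.76 and 7.89 in the mimic arrays and 6.74 and 6.77 in the control arrays, a difference of 1.07 ± 0.070 (SE), 2.09-fold (adjusted p = 0.00157) from its only probe set. That probe set is of the _s_at kind, which can match several transcripts. NUSAP1, a microtubule bundling protein, rose by 0.79 ± 0.066 (SE), 1.73-fold (adjusted p = 0.00267), and all 3 of its probe sets rose, by 0.56 to 0.82.

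The 3 members of the TACC family, named for their shared coiled-coil domain, went different ways. TACC3, which with clathrin and CKAP5 links the microtubules of kinetochore fibres, was at 7.18 and 7.27 in the mimic arrays and 5.80 and 6.35 in the control arrays. Its control arrays were 0.55 apart, yet both lay below the mimic arrays, and the difference was 1.15 ± 0.19 (SE), 2.21-fold (adjusted p = 0.0134). Of its 6 probe sets 2 rose, and the 6 ranged from -0.046 to 1.15. TACC2 was at 7.10 and 7.04 in the mimic arrays and 6.53 and 6.58 in the control arrays and rose by 0.51 ± 0.061 (SE), 1.43-fold (adjusted p = 0.00604). Its other probe set, 0.37 higher, did not pass. TACC1, at 7.74 and 7.74 in the mimic arrays and 7.98 and 8.02 in the control arrays, fell by 0.26 ± 0.058 (SE), 1.19-fold lower (adjusted p = 0.0308); 1 of its 8 tested probe sets fell and the others did not pass, in a range of -0.28 to 0.072. The fall of TACC1 is thus a call of 1 probe set, and it was lost in 6 of 12 alternative settings.

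CKAP5, the microtubule polymerase also called ch-TOG, was at 7.16 and 7.23 in the mimic arrays and 6.58 and 6.75 in the control arrays and rose by 0.52 ± 0.080 (SE), 1.44-fold (adjusted p = 0.0118), with both probe sets alike at 0.50 to 0.52. Augmin is the complex that seeds new microtubules on the sides of existing ones, and of its 3 subunits among the members HAUS6 and HAUS1 rose. HAUS6 was at 6.70 and 6.60 in the mimic arrays and 5.89 and 5.73 in the control arrays and rose by 0.84 ± 0.082 (SE), 1.79-fold (adjusted p = 0.00379), though its 4 probe sets ranged from -0.17 to 0.84. HAUS1 rose by 0.36 ± 0.066 (SE), 1.28-fold (adjusted p = 0.0185), a call lost in 5 of 12 alternative settings, among them leaving out any 1 array. Leaving out any 1 array also took the calls of CKAP5, TACC2, MASTL, CIT and CHMP4B. The differences of these genes kept their sign in every setting. HAUS8 was at 5.76 and 5.67 in the mimic arrays and 5.32 and 5.51 in the control arrays, a difference of 0.30 ± 0.087 that did not pass (adjusted p = 0.0549) although the arrays of the groups did not overlap.

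Of the remaining members of that group, BORA, the cofactor through which Aurora A activates PLK1, was at 6.86 and 6.88 in the mimic arrays and 6.23 and 6.34 in the control arrays and rose by 0.58 ± 0.067 (SE), 1.499-fold (adjusted p = 0.00553), with 0.32 in a second probe set, which also rose, and 0.11 in a dim one that did not pass. GTSE1, a microtubule-associated protein of G2 and M, was at 5.10 and 4.98 in the mimic arrays and 3.79 and 4.38 in the control arrays. Its controls were 0.59 apart, the widest gap among the members, and it rose by 0.96 ± 0.20 (SE), 1.94-fold (adjusted p = 0.0253), a call lost in 4 of 12 alternative settings, among them leaving out control 1. STMN1, which sequesters tubulin and destabilizes microtubules, was at 10.48 and 10.41 in the mimic arrays and 10.27 and 10.41 in the control arrays. The groups all but touched, and the difference of 0.10 ± 0.074 did not pass (adjusted p = 0.320, 95% interval -0.085 to 0.29). Of its 8 probe sets 1 rose, by 0.40, and the lowest was at -0.24.

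Proteins of the spindle poles, kinetochores and chromosome alignment had the highest median of the larger role groups, 1.16, with 8 of 10 rising and 0 falling. FAM83D, which brings casein kinase 1 alpha to the spindle, was at 8.30 and 8.36 in the mimic arrays and 6.54 and 6.59 in the control arrays. Replicates differed by less than 0.1 in either group, and it rose by 1.77 ± 0.061 (SE), 3.41-fold (adjusted p = 0.000784), the second largest difference among the members. ASPM, a spindle pole protein whose gene is mutated in primary microcephaly, was at 7.58 and 7.53 in the mimic arrays and 5.87 and 5.95 in the control arrays and rose by 1.65 ± 0.063 (SE), 3.13-fold (adjusted p = 0.000894); its other probe set gave 1.92. CKAP2L, a spindle protein related to CKAP2, was at 6.67 and 6.55 in the mimic arrays and 4.83 and 5.16 in the control arrays, below both mimic arrays by more than 1, and rose by 1.61 ± 0.13 (SE), 3.06-fold (adjusted p = 0.00221). CKAP2 itself rose by 0.86 ± 0.11 (SE), 1.81-fold (adjusted p = 0.00767), and its 3 tested probe sets ranged from 0.86 to 1.01.

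SPAG5 and KNSTRN, also called astrin and SKAP, form a complex that stabilizes kinetochore attachments, and both rose. SPAG5 was at 7.46 and 7.55 in the mimic arrays and 5.89 and 6.29 in the control arrays and rose by 1.42 ± 0.14 (SE), 2.67-fold (adjusted p = 0.00395). KNSTRN was at 8.40 and 8.38 in the mimic arrays and 7.43 and 7.73 in the control arrays and rose by 0.81 ± 0.11 (SE), 1.76-fold (adjusted p = 0.00855). In both genes control 2 was the higher control, by 0.40 and 0.30, and stayed below the mimic arrays.

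DLGAP5, also called HURP, which stabilizes kinetochore fibres, was at 8.11 and 8.08 in the mimic arrays and 6.56 and 6.82 in the control arrays and rose by 1.40 ± 0.10 (SE), 2.65-fold (adjusted p = 0.00193), with 1.35 in its other probe set. TROAP, a microtubule-associated protein also called tastin, rose by 0.91 ± 0.10 (SE), 1.87-fold (adjusted p = 0.00551), but 3 of its 6 probe sets did not pass, in a range of -0.12 to 1.22. SPDL1, which recruits dynein to kinetochores, was at 7.45 and 7.48 in the mimic arrays and 7.05 and 7.45 in the control arrays. Control 2 lay between the mimic arrays while control 1 lay 0.40 lower, and the difference of 0.21 ± 0.14 did not pass (adjusted p = 0.295). Among the settings tried it ranged from 0.0084 to 0.41. NUMA1, which anchors dynein at poles and cortex, was at 7.48 and 7.45 in the mimic arrays and 7.54 and 7.49 in the control arrays, a difference of -0.052 ± 0.059 (adjusted p = 0.531, 95% interval -0.20 to 0.10).

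In the Greatwall pathway the kinase rose, 1 of its substrates fell and the other did not pass. MASTL, the Greatwall kinase, phosphorylates the small related proteins ARPP19 and ENSA, which then inhibit the phosphatase PP2A-B55 and hold the cell in mitosis. MASTL was at 6.41 and 6.27 in the mimic arrays and 5.59 and 5.56 in the control arrays and rose by 0.77 ± 0.072 (SE), 1.70-fold (adjusted p = 0.00353). ENSA was at 7.62 and 7.58 in the mimic arrays and 7.82 and 7.86 in the control arrays and fell by 0.24 ± 0.058 (SE), 1.18-fold lower (adjusted p = 0.0364), a call lost in 8 of 12 alternative settings; adjusted over all 31711 probe sets, none of its 7 tested probe sets passed. ARPP19 was at 10.09 and 10.16 in the mimic arrays and 10.01 and 9.96 in the control arrays, and its difference of 0.14 ± 0.062 did not pass (adjusted p = 0.150), whereas its dimmer probe sets rose by 0.48 and 0.40.

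Of the 10 proteins of the midzone, contractile ring and RHOA regulation, 8 rose and 0 fell, and the median was 0.91. DEPDC1 had the largest difference of all members and ranked 9th among the 14340 genes. It was at 7.95 and 7.87 in the mimic arrays and 5.42 and 5.67 in the control arrays, so that each mimic array exceeded each control array by more than 2. The difference was 2.36 ± 0.099 (SE), 5.14-fold (adjusted p = 0.00102), and all 3 of its probe sets rose, by 1.75 to 2.36. Its relative DEPDC1B, which also carries a DEP domain and a RhoGAP-like domain, was at 7.88 and 7.99 in the mimic arrays and 6.91 and 7.07 in the control arrays and rose by 0.95 ± 0.082 (SE), 1.93-fold (adjusted p = 0.00287).

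The members that place the division plane, PRC1, RACGAP1 and ECT2, all rose. PRC1, which bundles the antiparallel microtubules of the midzone, was at 8.97 and 9.08 in the mimic arrays and 7.67 and 7.82 in the control arrays and rose by 1.28 ± 0.081 (SE), 2.43-fold (adjusted p = 0.00151). That probe set is of the _s_at kind; the only other one above the filter, 1.10 higher, did not pass. RACGAP1, the GTPase-activating subunit of centralspindlin, was at 7.93 and 7.87 in the mimic arrays and 7.07 and 7.22 in the control arrays and rose by 0.76 ± 0.074 (SE), 1.69-fold (adjusted p = 0.00387), and all 3 of its probe sets rose, by 0.38 to 0.76. ECT2, the exchange factor that centralspindlin brings to activate RHOA, was at 8.33 and 8.34 in the mimic arrays and 7.77 and 7.84 in the control arrays and rose by 0.53 ± 0.060 (SE), 1.45-fold (adjusted p = 0.00543). Its second, dimmer probe set gave -0.011, so the rise of ECT2 rests on a single probe set, of the _s_at kind.

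RHOA, the GTPase that these proteins control, was at 9.75 and 9.78 in the mimic arrays and 9.67 and 9.62 in the control arrays. The mimic arrays were slightly higher, and the difference of 0.12 ± 0.058 did not pass (adjusted p = 0.173, 95% interval -0.029 to 0.27). Of its 5 probe sets 1 rose, by 0.31, and the lowest was at -0.17. ARHGAP11A, a RhoGAP that acts on RHOA, was at 4.98 and 4.98 in the mimic arrays and 3.43 and 3.88 in the control arrays and rose by 1.32 ± 0.15 (SE), 2.50-fold (adjusted p = 0.00582). All 4 of its probe sets rose, by 0.47 to 1.32, but it has a partial copy, ARHGAP11B, from which they may not be separated. CIT, the citron kinase of the midbody, was at 7.49 and 7.31 in the mimic arrays and 6.40 and 6.67 in the control arrays and rose by 0.87 ± 0.12 (SE), 1.82-fold (adjusted p = 0.00882).

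ANLN, anillin, which scaffolds actin, myosin and septins in the ring, was at 8.85 and 8.81 in the mimic arrays and 7.75 and 7.82 in the control arrays. It rose by 1.05 ± 0.061 (SE), 2.07-fold (adjusted p = 0.00130), with all 4 probe sets higher by 0.73 to 1.22. SEPTIN9, a filament-forming GTPase that anillin recruits, was at 9.71 and 9.74 in the mimic arrays and 9.72 and 9.68 in the control arrays. The groups overlapped, and the difference of 0.020 ± 0.058 did not pass (adjusted p = 0.820, 95% interval -0.13 to 0.17) and turned to -0.047 after quantile normalization. Its 7 tested probe sets ranged from -0.063 to 0.27, and none of them passed.

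The abscission proteins moved in opposite directions. CEP55, which docks the abscission machinery at the midbody, was at 8.31 and 8.40 in the mimic arrays and 7.03 and 7.31 in the control arrays and rose by 1.18 ± 0.11 (SE), 2.27-fold (adjusted p = 0.00334). CHMP4B, the main filament subunit of ESCRT-III, was at 8.79 and 8.80 in the mimic arrays and 9.14 and 9.22 in the control arrays. Both mimic arrays were below both controls, and it fell by 0.38 ± 0.062 (SE), 1.31-fold lower (adjusted p = 0.0132); its second probe set also fell (-0.27). CHMP4B had the lowest difference among the members, and ESCRT-III also serves membrane sealing outside division.

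Probe sets of a gene share the same RNA and are not replicates, but they show how far a call depends on the one chosen. Of the 125 probe sets, 115 passed the filter on dim signal, and 63 rose, 3 fell and 49 did not pass in a fit over all 31711 probe sets tested, of which 14.5% rose and 7.95% fell. Among the 28 genes that rose, 22 had several tested probe sets. All of them were called higher in 15 of these 22 genes, and 4 (ECT2, HAUS6, TACC3 and TROAP) had at least 1 with a negative difference. The remaining 10 probe sets were too dim to test.

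**Figure D3:**
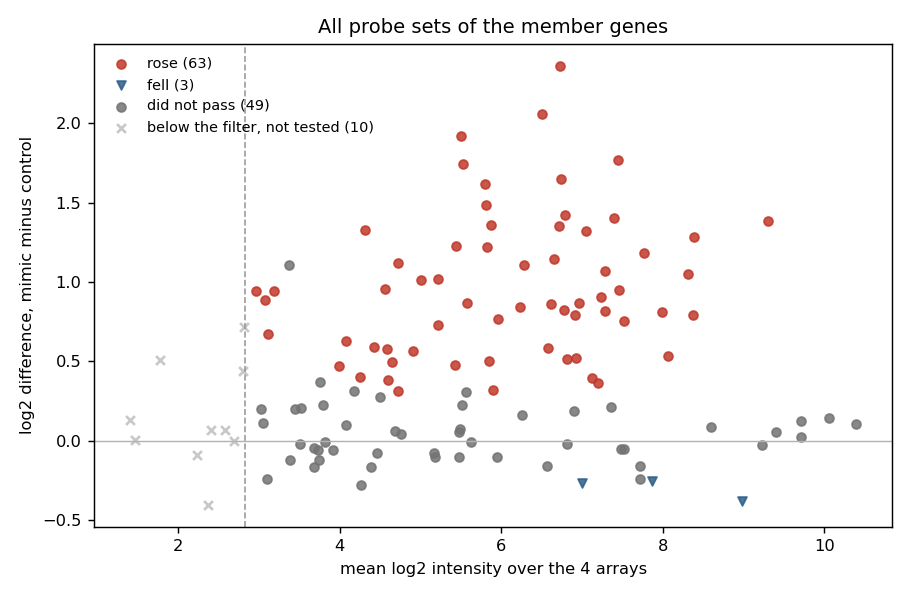
Log2 difference, mimic minus control (y axis), of all 125 probe sets of the members by their mean log2 intensity over the 4 arrays (x axis); colour and shape give the call in the fit over probe sets, and the dashed line marks the filter at 2.83. The 63 probe sets that rose lie between 2.97 and 9.31 on the x axis, no brighter one was called, and the 3 that fell, 1 of TACC1 and 2 of CHMP4B, lie above 7 on the x axis.

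The rest of the same machinery was described by lists of other genes. The shares to set beside each list are those over all genes tested, of which 17.7% rose and 12.3% fell. Of the 11 genes of the chromosomal passenger complex, the midzone kinesins and the mitotic kinases, 10 rose and 1 fell, with a median of 1.13. They were led by the kinesin KIF20A (2.02 ± 0.14 SE), the cyclin B1 gene CCNB1 (1.74 ± 0.098) and CDCA8, a passenger subunit (1.40 ± 0.16). INCENP, the scaffold of the passenger complex, was the one that fell (-0.35 ± 0.060), a call lost with the mean of a gene's probe sets and on leaving out any 1 array. KIF23, the motor partner of RACGAP1 in centralspindlin, rose by 1.13.

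Of 15 tested subunits of the gamma-tubulin ring and of augmin, 8 rose and 1 fell, with a median of 0.28, which was 0.12 with the mean of each gene's probe sets. TUBGCP4 (1.07 ± 0.10), MZT1 (0.92 ± 0.067) and TUBGCP5 (0.64 ± 0.064), all of the gamma-tubulin ring, had the largest rises, and TUBG2 fell (-0.41 ± 0.075). The augmin subunits HAUS3 (0.54), HAUS4 (0.47) and HAUS5 (0.28) rose beside HAUS6 and HAUS1. HAUS2 (0.20) and HAUS7 (0.24) did not pass, as HAUS8 did not. Of 8 genes of PP2A-B55, 3 alternative regulatory subunits rose, PPP2R2C (0.92 ± 0.066), PPP2R2B (0.87 ± 0.10) and PPP2R2D (0.78 ± 0.056), while PPP2R2A fell (-0.37 ± 0.094). The fall of PPP2R2A was not called without the filter on dim probe sets. The median of that list was 0.059, and it turned to -0.026 after quantile normalization.

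Of 22 genes of ring myosin, actin, formins and septins, 3 rose, the kinase gene ROCK1 (0.82 ± 0.075), MYH10 (0.28 ± 0.067) and SEPTIN10 (0.24), and 3 fell, SEPTIN6 (-0.28 ± 0.060), MYL12A (-0.22) and DIAPH1 (-0.21), with a median of -0.023. After quantile normalization 1 of the list rose and 5 fell, without the filter on dim probe sets 1 rose and 1 fell, and SEPTIN6 was at 0.011 with the mean of its probe sets. Of 18 ESCRT-III and abscission genes, 1 rose, the microtubule-severing SPAST (0.40 ± 0.059), and 4 fell, CHMP1B (-0.47 ± 0.058), CHMP4C (-0.34 ± 0.075), ZFYVE19 (-0.30) and VPS4A (-0.30), with a median of -0.12. Of 17 other plus-end and pole proteins, 4 rose, GPSM2, the partner of NUMA1 at the cortex (0.97 ± 0.062), KATNA1 (0.54 ± 0.066), NDE1 (0.50 ± 0.057) and CLASP1 (0.29), and 3 fell, CLIP1 (-0.47), MAPRE1 (-0.33) and DCTN1 (-0.24), with a median of -0.078. Quantile normalization gave 3 higher and 5 lower there. Of 10 stathmins and tubulins, TUBB4B (0.37 ± 0.071) and STMN3 (0.30 ± 0.064) rose and TUBA1A fell (-0.60 ± 0.062), with a median of 0.044. Once _s_at and _x_at probe sets were dropped, TUBB4B was at -0.37 and 0 of the 3 genes still tested rose. The median was -0.00056 after quantile normalization. Of all genes tested, 30.1% were called in either direction. Calls in the ring, ESCRT-III and tubulin lists came at about that rate. On leaving out any 1 array, no gene of the ring, ESCRT-III and tubulin lists passed. INCENP, KIF23, TUBG2, HAUS3, HAUS4, HAUS5, PPP2R2A, SEPTIN10, MYL12A, DIAPH1, ZFYVE19, VPS4A, CLASP1, CLIP1, MAPRE1 and DCTN1 were named after their values were seen. So were HAUS2 and HAUS7.

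**Figure D4:**
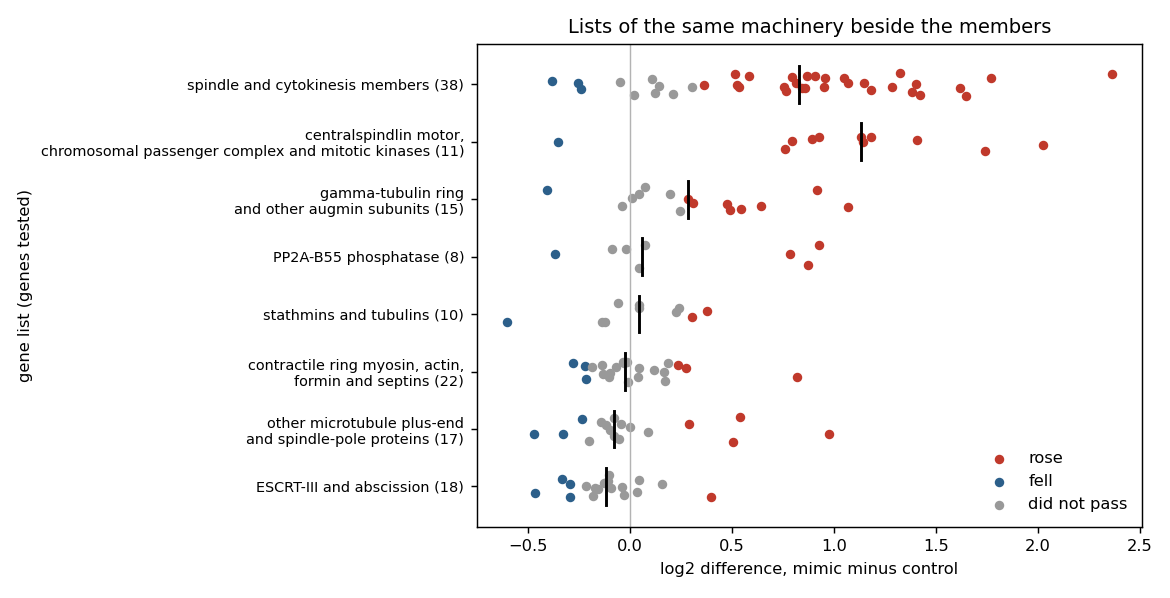
Log2 difference, mimic minus control (x axis), of each tested gene (points, spread vertically for legibility) in the 38 members and in 7 lists of other genes of the same machinery (y axis, genes tested in brackets), coloured by call, with the median of each list as a black bar. The members (0.83) and the passenger complex and kinase list (1.13) have the highest medians, and the ESCRT-III list (-0.12) has the lowest.

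The arrays as a whole were alike. Replicates correlated at r = 0.998 (mimic) and 0.997 (control) over the probe sets, and a mimic with a control array at 0.991; such an r runs over probe sets of single arrays, not over replicates. Median intensities were 17.2 to 17.5 on the linear scale of the deposited values, before log2 was taken. Of 8 epithelial markers listed, KRT6A and TP63 were not tested. The others, KRT5, KRT14, SFN, DSP, CDH1 and EPCAM, were all above the filter, with a mean log2 level of 10.2 to 10.6 in each array. Of these KRT5 (0.48) and KRT14 (1.15) rose. Of the 14 markers of fibroblasts, leukocytes and endothelium with a probe set, 6 were below the filter (PTPRC, LYZ, LUM, DCN, COL3A1 and CLDN5) and the others above it. CD68 was the brightest, at 6.10 and 5.95 in the mimic arrays and 5.75 and 5.62 in the control arrays, and the only one that rose (0.34). The mean levels of the 3 lists were between 2.81 and 3.996 in every array.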

How the data were processed

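Total RNA of 4 samples was labelled with biotin from 2 µg and hybridised to 1-colour Affymetrix arrays, per the labels' protocols. The deposited intensity values, 1 per probe set and array, were made by the authors with RMA, per the submitters' processing notes; neither its version nor its options were given in the sources used here. They ran from 1.62 to 11401 and were therefore taken as linear, and log2 was taken. RMA, which as generally run corrects background, quantile normalizes and summarizes probes, compresses differences of dim probe sets, and the values carry no detection calls, so dim signal and background cannot be told apart. Precision is limited by the number of arrays, 2 a group, for which an exact permutation test of a single gene cannot go below p = 0.333.

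Of 49293 probe sets, 44988 had 1 gene symbol in the platform annotation, 1832 several and 2473 none; 44961 were matched by gene identifier to RefSeq (GRCh38.p14) for the current symbol. Only probe sets with 1 gene were used, which left out 2 of ARHGAP11A and GTSE1 shared with other genes. The lowest 30% by mean log2 value (below 2.83) were left out, and each of 14340 genes was represented by its brightest probe set. All 38 members passed. The test was limma 3.58.1 (lmFit, eBayes, R 4.3.3) with no block. The p-values were adjusted by Benjamini-Hochberg and called under 0.05. The fit was also run on simulated data whose noise was drawn from its own variance model, so that run does not check the calls made here. Errors are moderated standard errors on 4.98 degrees of freedom, and a value in brackets after ± is such an error. The members, role groups and lists were chosen with earlier results of these data known. Every member is named, and from each other list the up to 3 called genes with the largest difference. The 12 alternatives were the filter, quantile normalization, an offset of 16, an intensity trend, a replicate block, other choices of probe set and leaving out each array.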

Additional observations from a re-analysis of the deposited data

How the results depend on the processing

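Of the 31 members called, 30 kept the sign of their difference in every alternative that could be run (TPX2 has no probe set outside the _s_at and _x_at kinds). The exception was gene ECT2, at -0.011 with those kinds left out. Among members not called, gene STMN1 was at -0.052 there and gene SEPTIN9 at -0.047 after quantile normalization and at -0.0018 without control replicate 2. Outside the left-out arrays, 24 of the 28 rises kept their call in every setting. Of the other lists, gene TUBB4B was at -0.37 without _s_at and _x_at probe sets and gene SEPTIN6 at 0.011 with the mean of a gene's probe sets. The cause of these changes was not tested.

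With the replicate block, 1939 genes rose and 979 fell (2544 and 1766 without), 26 members rose (GTSE1 and HAUS1 lost their calls) and 1 fell (1 among the members outside the G2 and M class), 0 member probe sets fell, and 1 ring, 3 ESCRT-III and 1 Greatwall genes were called; no ring or PP2A-B55 gene fell. Deviations of same-numbered arrays from their group means correlated at -0.0010 over genes, so the numbers gave no sign of pairing.

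After quantile normalization the medians were -0.065 for all genes, 0.73 for the members, 0.076 for those outside the G2 and M class, 0.48 for nucleation, 1.06 for poles and kinetochores, 0.086 for Greatwall, 0.81 for midzone and ring regulation, 1.04 for the passenger and kinase list, -0.070 for ring genes, -0.21 for ESCRT-III, -0.026 for PP2A-B55, 0.20 for the gamma-tubulin list and -0.00056 for tubulins, with 5 member probe sets lower and 1 Greatwall gene called. With an offset of 16 the medians were 0.71 for members, 0.87 for the G2 and M class, 1.03 for poles, 0.75 for midzone and 0.87 for the passenger list, with 8 ESCRT-III and 5 tubulin genes called. With the mean of a gene's probe sets they were 0.65 for members, 0.87 for the G2 and M class, 0.082 for the others, 0.44 for nucleation, 1.05 for poles, 0.34 for Greatwall, 0.79 for midzone, 0.99 for the passenger list, 0.12 for the gamma-tubulin list and 0.0048 for PP2A-B55, with 1 member lower and 8 ESCRT-III genes called.

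Without _s_at and _x_at probe sets the medians were 0.98 for the passenger list, -0.060 for ring genes and -0.14 for tubulins, with 3 ring, 4 plus-end and 1 tubulin genes called and 1 member probe set lower. With an intensity trend 10 ring, 9 ESCRT-III and 5 tubulin genes were called. Without the filter 2 ring genes and 1 Greatwall gene were called and 1 member probe set was lower. With 50% of probe sets left out the median of all genes was 0.011 and 5 tubulin genes were called.

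On leaving out 1 array, which leaves a lone sample assumed to vary like the other group, 0 to 796 genes rose and 0 to 167 fell; 0 to 23 members rose (0 to 22 of the G2 and M class and 0 to 1 of the others) and 0 fell; and 0 of the member probe sets rose or fell. Called genes were 0 to 9 in the passenger list, 0 in the ring, ESCRT-III, tubulin and Greatwall lists, 0 to 2 in each of the gamma-tubulin, plus-end and PP2A-B55 lists, 0 to 1 in abscission, 0 to 7 in nucleation, 0 to 7 in midzone and 0 to 8 in poles. Medians were 0.71 to 0.90 for members, 0.87 to 1.08 for the G2 and M class, 0.98 to 1.196 for the passenger list, -0.034 to 0.0015 for ring genes, -0.16 to -0.095 for ESCRT-III, 0.10 to 0.17 for Greatwall, 0.80 to 1.02 for midzone, 0.996 to 1.29 for poles and -0.0018 to 0.041 for gene SEPTIN9.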
